A study of Homo sapiens with 16 samples.

Results

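The signal peptidase complex and signal peptide peptidase are described here by 6 genes, chosen by name: SEC11A, SEC11C, SPCS1, SPCS2 and SPCS3 for the complex and HM13 for the second protease. These genes and the lists of other genes used below were chosen with earlier results of these data known. All 6 were found among the 58051 genes of the count table by their Ensembl identifiers. The data are RNA-seq of LNCaP cells, an androgen-responsive human prostate cancer line, at passage 20, in 4 groups of 4 libraries. In the knockdown experiment, cells received a control siRNA (siCtrl) or an siRNA against XBP1 (siXBP1) for 2 days. In the inhibitor experiment, cells received DMSO (Vehicle) or 10 μM MKC8866, an inhibitor of the IRE1α RNase, for 24 h. Every group, the controls included, was then exposed to 30 nM thapsigargin for 3 h, which empties the calcium store of the endoplasmic reticulum (ER) and activates the unfolded protein response. No group without thapsigargin is compared here, and the labels name a single cell line and do not say whether replicates were separate cultures, so p-values measure the spread between these libraries.

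Most secreted and membrane proteins enter the ER with an N-terminal signal peptide, which the signal peptidase complex cuts off during translocation. The cut is made by SEC11A or by its paralogue SEC11C, which form alternative versions of the complex, while SPCS1, SPCS2 and SPCS3 are non-catalytic or accessory subunits. HM13 encodes signal peptide peptidase, an aspartyl protease that cuts inside the membrane, clears leftover signal peptides and takes part in ER-associated degradation. In the unfolded protein response, IRE1α splices XBP1 mRNA so that it encodes the transcription factor XBP1s, which many genes of the secretory pathway are known to follow.

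Levels are given as CPM, the counts of a gene scaled to a common library size, after TMM scaling, a correction for library composition, and changes as log2 fold changes with their standard error (SE). The test was the quasi-likelihood F test of edgeR, its p-values were adjusted by the Benjamini-Hochberg method over every gene tested, and a gene was called below 0.05. Libraries held between 28713607 and 34509488 counted fragments, and the lowest count of any of the 6 genes in a library was 895, for SPCS2. XBP1, the target of the siRNA, had 386, 422, 366 and 359 CPM in siCtrl libraries 1 to 4 (mean 383 ± 28.0, SD, n = 4). It had 51.2, 54.2, 54.2 and 53.2 CPM in siXBP1 libraries (53.2 ± 1.40). The 6 luminal prostate markers examined (KLK2, KLK3, FOLH1, TMPRSS2, KRT8, KRT18) were all present. Their summed level lay between 2754 and 2890 CPM in siCtrl, 2213 and 2380 in siXBP1, 2868 and 3020 in Vehicle, and 3140 and 3270 in MKC8866 libraries. The sum hides unlike changes of single markers. After knockdown their log2 fold changes ranged from -0.89 (TMPRSS2) to -0.01 (FOLH1), and with MKC8866 from -0.22 (KRT18) to 0.46 (KLK3). Among 8 markers of basal, stromal, immune and endothelial cells, only COL1A1 averaged 1 CPM or more. Their sum lay between 26.5 and 34.6 CPM in siCtrl, 31.7 and 35.0 in siXBP1, 28.4 and 37.8 in Vehicle, and 25.7 and 31.2 in MKC8866. The part of these markers in the changes below was not tested. In bulk RNA, fewer cells of a kind and less RNA per cell cannot be told apart.

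The 6 genes lie on separate chromosomes (GRCh38): SPCS1 at chr3:52704955-52711146, SPCS3 at chr4:176319964-176332245, SPCS2 at chr11:74949247-74979031, SEC11C at chr18:59139477-59158836 and HM13 at chr20:31514428-31577923, all on the plus strand. SEC11A lies on the minus strand at chr15:84669538-84716716. One of them, SPCS2, has a nearly identical copy elsewhere. SPCS2P4 is a processed pseudogene, an intronless copy made from mRNA, at chr1:28095742-28096422 on the minus strand. Its 681 bases aligned without a gap to the whole coding sequence of the transcript SPCS2-201 (GENCODE release 44), with 678 identical bases (99.6%) and 3 differences. The longest stretch without a difference was 405 bases. Windows of 41 coding bases around 2 of the differences are shown because they hold bases by which reads of the coding sequence can be told apart. Each is centred on the differing base, in capitals, and positions count from 1 at the A of the start codon.

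At position 26 (G26A, from SPCS2 to the copy, chr1:28096377-28096417 in the copy), the sequences read:
SPCS2: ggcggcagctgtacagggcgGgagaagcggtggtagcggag
SPCS2P4: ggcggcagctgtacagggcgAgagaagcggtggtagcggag
At position 87 (A87G, chr1:28096316-28096356 in the copy):
SPCS2: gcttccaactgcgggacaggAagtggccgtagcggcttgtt
SPCS2P4: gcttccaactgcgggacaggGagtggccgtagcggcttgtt

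After XBP1 knockdown, 4 of the 6 genes fell: SEC11C, SPCS2, SPCS3 and HM13. Their log2 fold changes lay between -0.44 and -0.38, while SEC11A (-0.03) and SPCS1 (0.04) did not pass the test. Over all 21021 genes tested, 18.2% were called lower and 16.5% higher. With MKC8866, again SEC11C, SPCS2, SPCS3 and HM13 fell, against 3.11% of the 21045 genes called lower and 1.36% called higher. The 4 genes that fell were also those whose treated libraries all lay below all control libraries, a pattern that 17.2% of tested genes showed in the knockdown and 5.29% in the inhibitor experiment. The median change of the 6 genes was -0.38 after knockdown and -0.31 with MKC8866, beside 0.0050 and 0.0027 over all genes tested.

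**Figure D1:**
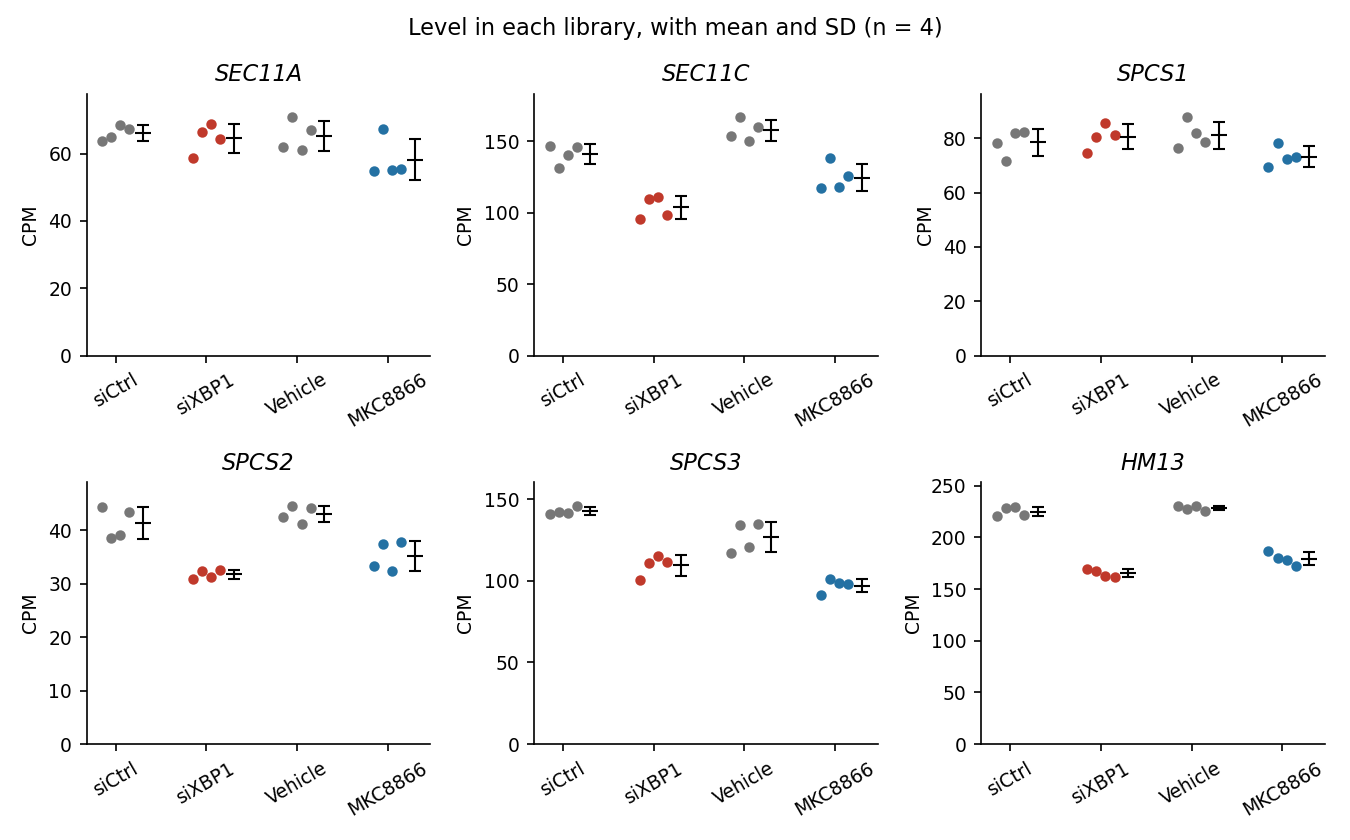
Level of each of the 6 genes in CPM (vertical axis, from 0) in the 16 libraries, by group; points are libraries and black bars mark the mean and SD of 4 libraries. For SEC11C, SPCS2, SPCS3 and HM13, the 4 treated libraries lie below the 4 control libraries in both experiments; for SEC11A and SPCS1 the groups overlap.

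The catalytic subunits SEC11A and SEC11C differed in what the treatments did to them. SEC11C had 147, 132, 141 and 146 CPM in siCtrl libraries 1 to 4 and 95.7, 110, 111 and 98.5 CPM in siXBP1 libraries. It had 154, 167, 151 and 160 CPM in Vehicle and 117, 138, 118 and 126 CPM in MKC8866 libraries. In each experiment the highest treated library lay below the lowest control library. SEC11C fell by 26.5% after knockdown (log2 fold change -0.44, SE 0.051, adjusted p = 3.78e-07). With MKC8866 it fell by 20.8% (log2 fold change -0.34, SE 0.050, adjusted p = 5.68e-05). The Vehicle mean (158 ± 7.28 CPM) was above the siCtrl mean (141 ± 6.91 CPM). The 2 sets of control libraries, which had different pretreatments, did not overlap.

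SEC11A, the other catalytic subunit, had 63.7, 64.8, 68.6 and 67.3 CPM in siCtrl and 58.6, 66.3, 68.7 and 64.5 CPM in siXBP1 libraries. The groups overlapped throughout, and the change of -0.03 (SE 0.050, 95% confidence interval -0.14 to 0.07, adjusted p = 0.663) did not pass the test. In the inhibitor experiment it had 62.1, 70.8, 60.9 and 66.9 CPM in Vehicle and 54.9, 67.3, 55.0 and 55.5 CPM in MKC8866 libraries. MKC8866 libraries 1, 3 and 4 sat below every Vehicle library, and replicate 2 sat among the Vehicle libraries. The change was -0.16 (SE 0.062, adjusted p = 0.176) and did not pass the test. With same-numbered libraries paired, as their shared deviations in this experiment allow, SEC11A was called lower at the same size (-0.16, adjusted p = 0.000554). Without MKC8866 replicate 2 it was also called lower, at -0.24 (adjusted p = 0.00383). That fit called 833 of 20841 genes lower, beside 654 of 21045 with all libraries.

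To set the paralogues side by side, the share of SEC11C in their summed level was taken per kilobase of exon. SEC11C made up 74.6, 72.1, 72.3 and 73.4% of the pair in siCtrl libraries and 67.5, 67.9, 67.4 and 66.1% in siXBP1 libraries. It made up 75.9, 75.0, 75.9 and 75.3% in Vehicle and 73.1, 72.3, 73.2 and 74.3% in MKC8866 libraries. SEC11C thus stayed the more abundant transcript of the pair in all 16 libraries, and its share was lower in each treated group with no overlap. The mean share was 73.1 ± 1.12% in siCtrl and 67.2 ± 0.788% in siXBP1 cells, so that the treated mean fell by 5.91 percentage points (exact permutation test, two-sided, n = 4 and 4, p = 0.0286, adjusted over 2 comparisons 0.0286). It was 75.5 ± 0.439% in Vehicle and 73.2 ± 0.784% in MKC8866 cells, and fell by 2.31 percentage points (exact permutation test, two-sided, p = 0.0286, adjusted 0.0286). This is the smallest p that 4 against 4 libraries can give. Without Vehicle replicate 1, 3 or 4 the inhibitor difference had p = 0.0571 in the exact permutation test.

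**Figure D2:**
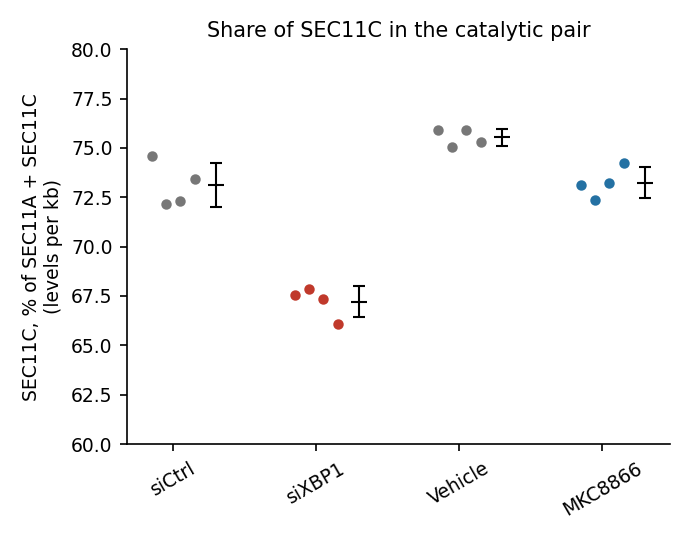
Share of SEC11C in the summed per-kilobase level of SEC11A and SEC11C, in percent (vertical axis from 60 to 80%), for each library by group, with mean and SD of 4 libraries. The siXBP1 libraries lie between 66.1 and 67.9%, below all siCtrl libraries; the MKC8866 libraries lie between 72.3 and 74.3%, below all Vehicle libraries.

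Of the accessory subunits, SPCS3, a glycosylated ER protein needed for the complex to work, fell in both experiments. It had 141, 142, 142 and 146 CPM in siCtrl and 100, 111, 115 and 111 CPM in siXBP1 libraries. The Vehicle libraries had 117, 134, 121 and 135 CPM and the MKC8866 libraries 91.3, 101, 98.5 and 97.9 CPM. The treated libraries lay below their controls in both experiments, and the spread among controls was wider in Vehicle (SD 9.09 CPM) than in siCtrl cells (SD 2.32 CPM). SPCS3 fell by 23.3% after knockdown (log2 fold change -0.38, SE 0.044, adjusted p = 3.86e-07) and by 23.3% with MKC8866 (log2 fold change -0.38, SE 0.049, adjusted p = 8.25e-06).

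SPCS2, the subunit with the nearly identical copy, fell as well. It had 44.4, 38.7, 39.1 and 43.5 CPM in siCtrl and 30.9, 32.4, 31.2 and 32.7 CPM in siXBP1 libraries. The Vehicle libraries had 42.6, 44.6, 41.3 and 44.1 CPM and the MKC8866 libraries 33.3, 37.5, 32.4 and 37.8 CPM. No treated library reached its lowest control. SPCS2 fell by 23.2% after knockdown (log2 fold change -0.38, SE 0.055, adjusted p = 8.41e-06) and fell by 18.1% with MKC8866 (log2 fold change -0.29, SE 0.056, adjusted p = 0.00174).

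SPCS2P4 had more counts than SPCS2 in every library, although it is a pseudogene. It held between 59.0 and 62.5% of the counts of both over the 16 libraries. Its mean was 64.0 ± 4.39 CPM in siCtrl, 50.05 ± 1.03 in siXBP1, 67.9 ± 3.54 in Vehicle and 55.7 ± 2.85 in MKC8866 cells. SPCS2P4 fell by 21.8% after knockdown (log2 fold change -0.36, adjusted p = 7.17e-06) and by 17.7% with MKC8866 (log2 fold change -0.28, adjusted p = 0.000628). Multimapping fragments were not counted, and the copy is 99.6% identical to the coding sequence. The level of SPCS2 and its division from the copy are therefore uncertain. Whether the SPCS2P4 counts come from transcripts of the copy or of SPCS2 was not tested, so its fall cannot be read as that of a separate transcript. With both counted as 1 gene, a setting chosen after seeing the data, the changes were -0.37 and -0.28 and both stayed called. The other SPCS2 pseudogenes were nearly absent: SPCS2P1 had at most 1.12 CPM, SPCS2P3 at most 0.16 CPM and SPCS2P2 at most 0.03 CPM in a library. SEC11B, a pseudogene of the SEC11 family, had at most 0.59 CPM.

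**Figure D3:**
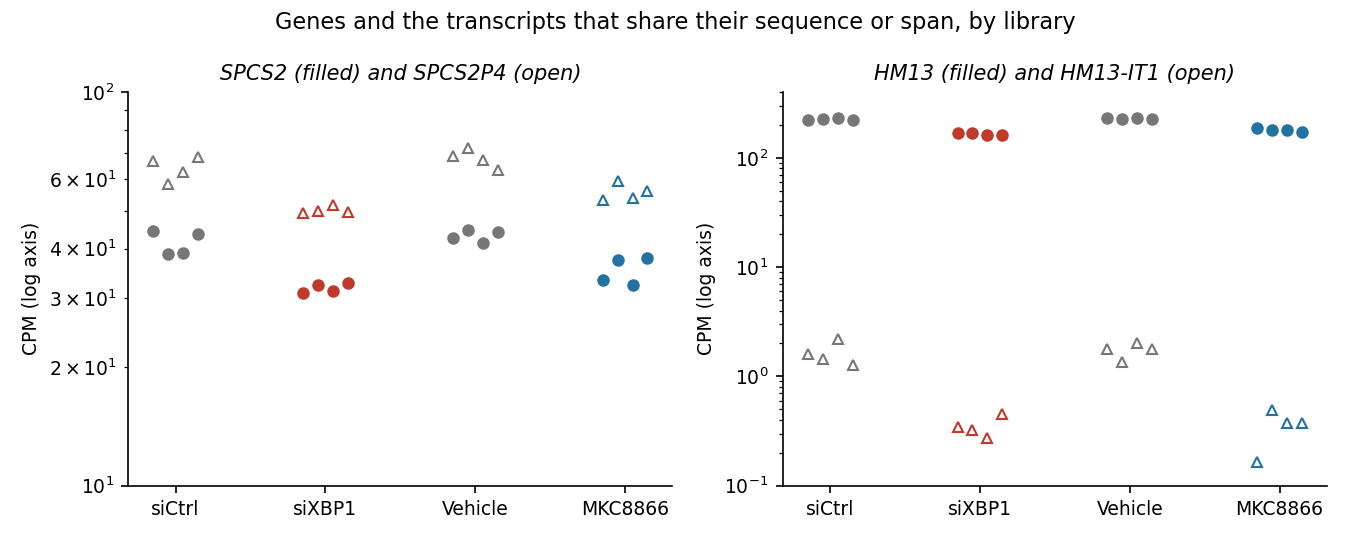
CPM on a log axis, by library and group, for SPCS2 (filled) with its copy SPCS2P4 (open) on the left, and HM13 (filled) with the transcript HM13-IT1 in its intron (open) on the right. SPCS2P4 lies above SPCS2 in all 16 libraries and both move down together in treated cells. HM13-IT1 lies between 1.26 and 2.20 CPM in the control libraries and between 0.17 and 0.50 CPM in the treated libraries.

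SPCS1, a small accessory subunit, did not pass the unpaired test in either experiment. It had 78.2, 71.7, 81.7 and 82.3 CPM in siCtrl and 74.5, 80.6, 85.7 and 81.1 CPM in siXBP1 libraries. The groups overlapped, and its change after knockdown was 0.04 (SE 0.051, 95% confidence interval -0.07 to 0.14, adjusted p = 0.648). In the inhibitor experiment it had 76.3, 87.7, 81.8 and 78.7 CPM in Vehicle and 69.3, 78.4, 72.2 and 72.9 CPM in MKC8866 libraries. The highest of these treated libraries, replicate 2, lay among the Vehicle libraries, and the change of -0.15 (SE 0.050, adjusted p = 0.114) did not pass the test. With same-numbered libraries paired, SPCS1 was called lower at -0.15 (adjusted p = 0.000648), and without MKC8866 replicate 2 at -0.19 (adjusted p = 0.0218). Leaving out that library, 833 of 20841 genes were called lower. With pairing, therefore, all 6 genes were called lower with MKC8866, beside 7.05% of genes tested.

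SPCS1 counts are limited by its neighbours. On the opposite strand, exons of NEK4, a protein kinase gene, cover 2698 of the 5324 exon bases of SPCS1, and those of GLT8D1, a glycosyltransferase gene, cover 448. Counting ignored strand and discarded fragments that fell on 2 genes, which leaves 2178 exon bases of SPCS1 unshared. NEK4 did not pass the test in either experiment (log2 fold changes -0.02 and 0.02). GLT8D1 had 0.04 after knockdown (adjusted p = 0.640) and fell by 0.19 on the log2 scale with MKC8866 (adjusted p = 0.0273). SEC11A and SEC11C shared no exon bases with another gene in the table. Other genes within the span of SEC11A (ENSG00000259654), SPCS2 (RNU6-216P) and SPCS3 (SPCS3-AS1) reached at most 9, 19 and 3 counts in a library, and only SPCS3-AS1 shares exon bases (314, with SPCS3).

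HM13, signal peptide peptidase, fell in both experiments. It had 221, 228, 229 and 222 CPM in siCtrl and 170, 167, 163 and 162 CPM in siXBP1 libraries. The Vehicle libraries had 230, 227, 231 and 226 CPM and the MKC8866 libraries 187, 180, 178 and 172 CPM. The 2 control groups overlapped, whereas every siXBP1 library lay below every MKC8866 library. These groups have different controls, and the difference between the 2 HM13 changes was not called (edgeR's quasi-likelihood test, adjusted p = 0.186). HM13 fell by 26.5% after knockdown (log2 fold change -0.44, SE 0.037, adjusted p = 2.63e-09) and by 21.4% with MKC8866 (log2 fold change -0.35, SE 0.038, adjusted p = 8.13e-07).

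A transcript annotated within an intron of HM13 on the same strand, HM13-IT1, fell by more than HM13, at low counts. It had 1.61, 1.45, 2.20 and 1.26 CPM in siCtrl and 0.35, 0.32, 0.27 and 0.46 CPM in siXBP1 libraries. The Vehicle libraries had 1.76, 1.35, 2.00 and 1.76 CPM and the MKC8866 libraries 0.17, 0.50, 0.37 and 0.38 CPM. The groups did not overlap in either experiment, with between 5 and 69 counts in a library. HM13-IT1 fell by 2.20 on the log2 scale after knockdown (SE 0.26, adjusted p = 5.03e-07) and by 2.27 with MKC8866 (SE 0.25, adjusted p = 9.16e-07). It shares no exon bases with HM13, but reads of unspliced HM13 RNA over the same bases cannot be told from it. The other genes within the span of HM13 were MCTS2 (log2 fold changes -0.08 and 0.17) and HM13-AS1 (0.10 and 0.09), neither of which passed the test. They share 189 and 242 exon bases with HM13. A further gene there, ENSG00000274364, had at most 6 counts and shares none.

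In the inhibitor experiment, the libraries of a number moved together in part. Vehicle replicate 2 was the highest of its group for SEC11A, SEC11C, SPCS1 and SPCS2, and MKC8866 replicate 2 for SEC11A, SEC11C, SPCS1 and SPCS3. In the knockdown experiment, siXBP1 replicate 1 was the lowest of its group for the 5 signal peptidase genes and the highest for HM13. There siCtrl replicate 1 was the highest of its group for SEC11C and SPCS2 and the lowest for SEC11A, SPCS3 and HM13. The Vehicle libraries of SPCS3 all lay below its siCtrl libraries, and these controls had different pretreatments. The share of all genes with such a gap between the controls was not examined.

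Between the 2 experiments, the difference of the changes (knockdown minus inhibitor) was tested for each gene in a fit of all 16 libraries. None of the 6 was called in edgeR's quasi-likelihood test, beside 23.3% of the 20357 genes tested. The smallest p of the 6 in that test, 0.0191 before adjustment, was that of SPCS1. Its difference in that test was 0.18 (SE 0.074, adjusted p = 0.0730), SPCS1 standing at 0.04 after knockdown and -0.15 with MKC8866. The differences of the other 5 had 95% confidence intervals that included 0: -0.20 to 0.01 for HM13, -0.26 to 0.05 for SEC11C, -0.25 to 0.07 for SPCS2, -0.14 to 0.14 for SPCS3 and -0.05 to 0.30 for SEC11A. SPCS1 was called with same-numbered libraries as a block in both experiments (adjusted p = 0.0139, beside 27.7% of genes). Knockdown libraries of a number did not deviate together, so for them this block has no support in the data. With scaling by total counts SPCS1 was called as well (0.0472). Its call was also gained without siXBP1 replicate 1 (0.0337), without Vehicle replicate 1 (0.0450) and without MKC8866 replicate 2 (0.0331). Many genes were called in these fits: with total counts, 2356 were negative and 2461 positive of 20357. Without those libraries, in the same order, 2514, 2502 and 2655 were negative and 1999, 1965 and 2112 positive. The genes tested were 20272, 20249 and 20246. SEC11A was called only without MKC8866 replicate 2, at 0.20 (adjusted p = 0.0459), and DESeq2 called none of the 6. The experiments had separate controls and pretreatments, so the kind of treatment and the experiment cannot be told apart.

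**Figure D4:**
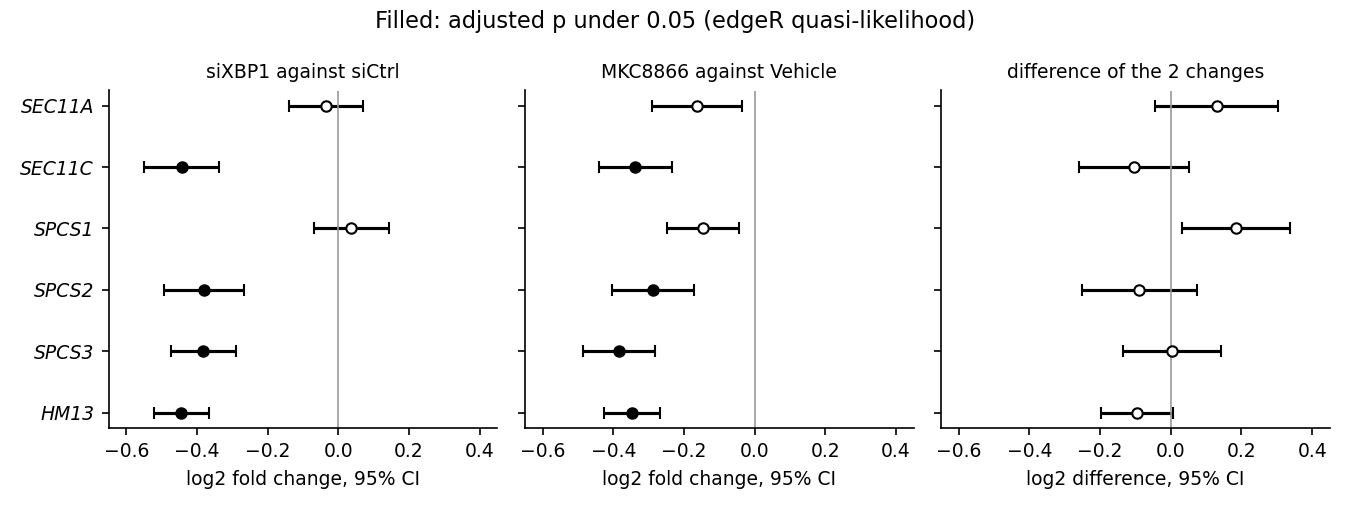
Log2 fold change with 95% confidence interval (horizontal axis) of the 6 genes for siXBP1 against siCtrl (left) and MKC8866 against Vehicle (middle), and the difference of both changes (right); filled points passed an adjusted p of 0.05. SEC11C, SPCS2, SPCS3 and HM13 lie between -0.44 and -0.29 in the left and middle panels, and no point in the right panel is filled.

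Compared with each other per kilobase of merged exon, over all 16 libraries, SEC11C had the highest level at 29.2 CPM per kb and SEC11A the lowest at 11.05. Between them stood HM13 (20.0 CPM per kb), SPCS3 (17.4), SPCS1 (14.7) and SPCS2 (12.7). These levels placed the 6 genes between percentiles 75.3 and 91.5 of the 20357 genes tested in both experiments. The order depends on the length taken. Over unshared exon bases only, SPCS1 stood at 36.0 CPM per kb, above SEC11C, and with SPCS2P4 added to it SPCS2 stood at 32.6. Both settings were chosen after seeing the data, and merged exons include exons that a given transcript may lack.

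Promoter sequences, the 250 bases before the RefSeq start (GRCh38.p14), were at hand for SEC11A, SEC11C, SPCS2 and SPCS3, and not for SPCS1 and HM13. They were searched on both strands for motifs of the kind XBP1s is known to bind: TGACGTGG and its shortened form GACGTGG. The variant CACGTGG was searched as well. So was the core ACGTG, and so was the core CCACG, and both overlap the longer motifs. CCAAT and CCACG separated by 9 bases, and ATTGG and CCACG separated by 1 base, were also searched. SPCS2 held GACGTGG, on the reverse strand, which 2.62% of 35116 promoters held, and SEC11C held CACGTGG, which 3.64% held. Both windows are shown, with the 7 matching bases in capitals. Whether XBP1s or another factor binds at these matches was not tested.

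SPCS2 (chr11:74949137-74949165, plus strand, match 118 to 112 bases before the start): aagccccgcggCCACGTCctctgactacc
SEC11C (chr18:59139831-59139859, plus strand, match 42 to 36 bases before the start): gagtcgccggtCACGTGGccgcaaggacg

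SEC11A, which was not called in the unpaired test, held CCACG and none of the other motifs; 33.5% of promoters held CCACG, with or without the others. SPCS3, which fell in both experiments, held none of these letter strings in its window. No promoter of the 4 held TGACGTGG (0.612% of all promoters) or either spaced pair (0.0740 and 0.0513%). ACGTG was found in SEC11C and SPCS2 and in 18.5% of all promoters. The SEC11A and SEC11C windows lie wholly within exons of the annotation used for counting, which starts these genes further upstream.

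Of the other aspartyl proteases examined that are related to signal peptide peptidase, 1 was called lower and 1 higher after knockdown, and none in the unpaired test with MKC8866. Over all genes tested, 18.2% were called lower and 16.5% higher after knockdown, so single calls among so few genes are near that background. Of SPPL2A, SPPL2B, SPPL2C, SPPL3 and PSEN2, SPPL2C had no counts and 4 were tested. After knockdown SPPL3 fell (log2 fold change -0.20, adjusted p = 0.00940) and SPPL2A rose (0.18, adjusted p = 0.0198), while SPPL2B (0.04) and the presenilin PSEN2 (-0.07) did not pass. The call of SPPL3 was lost without siXBP1 replicate 4. With MKC8866 none of the 4 was called in edgeR's test and none was called lower in DESeq2: SPPL2A had 0.01, SPPL2B -0.17, SPPL3 0.11 and PSEN2 -0.04. SPPL2B, the only one with an unadjusted p under 0.05 (0.00660), was called lower with same-numbered libraries paired (adjusted p = 0.000827), without the filter on low counts and without Vehicle replicate 2. The median of the 4 was -0.016 and -0.013, beside -0.44 and -0.35 for HM13.

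Genes whose products work with signal peptide peptidase varied. DERL1, a membrane protein of ER-associated degradation, fell from 63.8 ± 5.47 to 51.0 ± 0.638 CPM after knockdown (log2 fold change -0.32, adjusted p = 5.67e-05) and from 59.6 ± 2.60 to 45.6 ± 1.09 CPM with MKC8866 (-0.38, adjusted p = 4.45e-06). RNF139, the ubiquitin ligase TRC8, had changes of 0.14 (adjusted p = 0.0686) and -0.03 (adjusted p = 0.894), neither called. HMOX1, heme oxygenase 1, a membrane-anchored substrate, fell after knockdown (-0.41, adjusted p = 0.000510) and had -0.08 with MKC8866 (adjusted p = 0.721). The difference between its responses was itself called (-0.33, adjusted p = 0.0327). XBP1, whose unspliced form gives a protein that the peptidase cuts, fell by 2.85 on the log2 scale after knockdown (adjusted p = 2.92e-20). With MKC8866 total XBP1 mRNA rose from 503 ± 25.3 to 579 ± 34.0 CPM (log2 fold change 0.20, adjusted p = 0.00493).

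Genes of the steps around signal peptide cleavage were counted as well. Of 12 genes of the oligosaccharyltransferase, which adds N-glycans during translocation, 8 fell and 2 rose after knockdown (18.2% of all tested genes were called lower and 16.5% higher), with a median of -0.32. The lowest was OSTC (-0.96, adjusted p = 1.06e-11) and the highest TUSC3 (0.17, adjusted p = 0.0411). With MKC8866, 9 of the 12 fell (3.11% of all tested genes) and the other 3 did not pass the test, with a median of -0.29, from KRTCAP2 (-0.63, adjusted p = 1.33e-05) to TUSC3 (-0.03, adjusted p = 0.914). With same-numbered libraries paired, 11 of the 12 were called lower, beside 7.05% of genes, and TUSC3 was not. Of 21 genes of targeting and translocation, which bring the chain to the SEC61 channel, 17 fell and 1 rose after knockdown, beside the same 18.2 and 16.5% of all genes, with a median of -0.59. They ranged from SERP1 (-1.50, adjusted p = 4.11e-15), a channel-associated stress protein, to SEC61A2 (0.20, adjusted p = 0.0214). With MKC8866, 16 of the 21 fell, beside 3.11% of all genes, and the other 5 did not pass the test, with a median of -0.41, from SSR2 (-0.94, adjusted p = 4.01e-14), a subunit of the translocon-associated protein complex, to TRAM2 (0.09, adjusted p = 0.575). The 4 peptidase genes that fell, at -0.44 to -0.29, thus lay above the median of the translocation genes in each experiment.

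**Figure D5:**
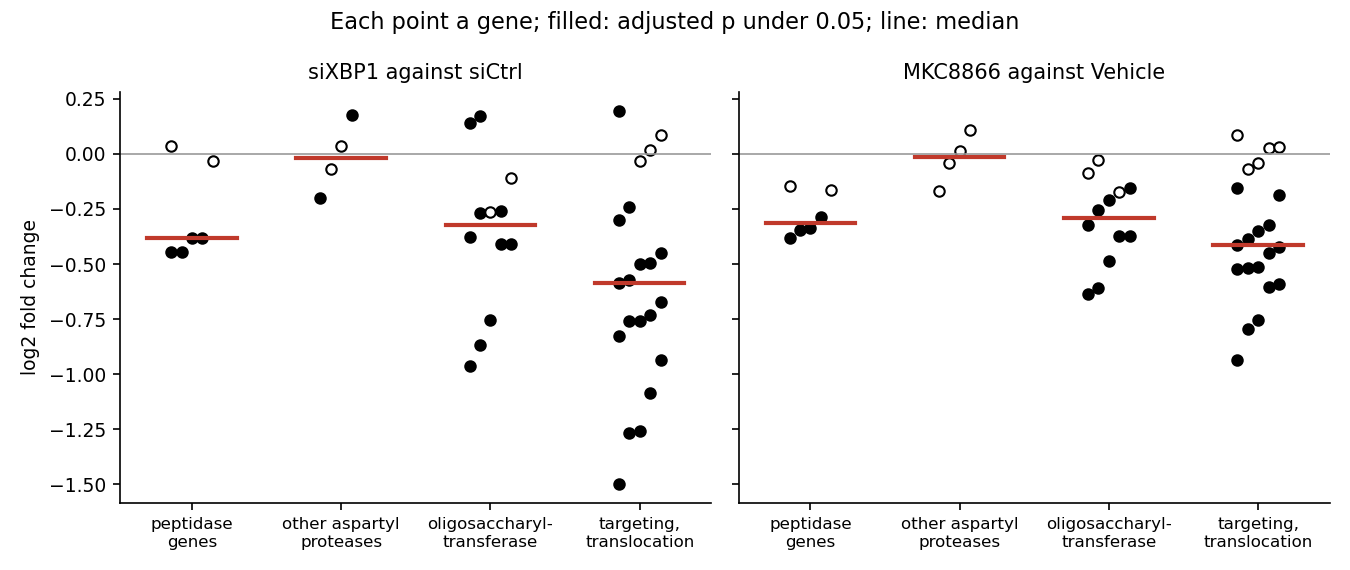
Log2 fold change (vertical axis) of each tested gene of 4 lists, for siXBP1 against siCtrl (left) and MKC8866 against Vehicle (right); filled points passed an adjusted p of 0.05 and red lines are medians. The peptidase genes have medians of -0.38 and -0.31, the other aspartyl proteases -0.016 and -0.013, the oligosaccharyltransferase -0.32 and -0.29, and targeting and translocation -0.59 and -0.41.

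Likeness of pattern was measured as the root mean square difference of centred log2 CPM over 16 libraries, among 10238 genes with a mean of at least 10 CPM. The nearest gene to SPCS2 was its copy SPCS2P4 (0.057), followed by PMM2, a phosphomannomutase of glycosylation (0.071). The division of counts between SPCS2 and its copy is uncertain, so their nearness cannot be read as that of separate transcripts. HM13 was closest to ZNF622 (0.053) and to SEC13, a COPII coat protein (0.053). SEC11C was closest to PPIB, an ER prolyl isomerase (0.064), and TCEAL9 (0.070), and SPCS3 to TES (0.070) and TRIM5 (0.070). SEC11A was closest to RPL34, a ribosomal protein gene (0.043), and the ribosomal pseudogene RPL17P7 (0.051), and SPCS1 to YIPF6 (0.042) and the mitochondrial chaperonin HSPD1 (0.043). Within the set, the smallest differences were between SEC11A and SPCS1 (0.068) and between SEC11C and SPCS2 (0.088), and the largest between SEC11C and SPCS1 (0.23). This measure is small for genes that vary little, such as SPCS1, whose own root mean square was 0.093, against 0.24 for SEC11C. Ranked by nearness among all these genes, SPCS1 stood at place 26 for SEC11A, and SPCS2 at place 8 for SEC11C. These were the lowest places found within the set. The others ran from 70, for HM13 ranked from SPCS2, to 8453, for HM13 ranked from SPCS1. Differences between the control groups also enter the measure.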

How the data were processed

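RNA of 16 LNCaP libraries was sequenced by the authors as stranded paired-end reads, aligned to hg38 with STAR 2.5.2a and summarised with featureCounts 1.5.0 (Subread) on an Ensembl annotation of GRCh38. The deposited values are counts of fragments per gene, not normalized; per the file headers, strand was not used, and multimapping fragments and those on more than 1 gene were left out, which lowers genes with copies or overlapping neighbours. All count columns were mapped to samples and 0 were left unused.

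The two-sided quasi-likelihood F test of edgeR 4.0.16 (R 4.3.3) was run on the counts with TMM scaling, comparing each treatment only with its matching control, and p-values were adjusted by Benjamini-Hochberg over every gene tested. As in the study's methods, a gene entered when both groups had a library in which its count exceeded 5. The difference between treatments was tested as an interaction over all 16 libraries, and its replicate block, an alternative, covered both experiments. SEC11C shares were compared by an exact permutation test. Alternatives were DESeq2 1.42.0, other size factors, other filters, a replicate block, a fit of all 16 libraries and leaving out each library. Total counts per library ranged from 28713607 to 34509488; edgeR's estimate of the variation between libraries beyond counting was 5.40% (knockdown) and 4.97% (inhibitor), the latter 2.68% with the replicate block, and counting error adds to it for genes with few counts. Same-numbered libraries deviated together in the inhibitor experiment (correlations 0.10 to 0.38, beside -0.25 to 0.16 for libraries of different number, so that the ranges overlap) but not in the knockdown experiment (0.0010 to 0.068), so the numbers were taken to pair libraries in the former only; this pairing rests on the data, not on the labels. The tests were tried on simulated data first.

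Symbols were matched by Ensembl identifier for 56948 of 58051 genes. The SPCS2 coding sequence was aligned to its copy with Biopython 1.88, and promoters are from RefSeq. The 6 genes and the lists were chosen with earlier results of these data known. Named are the 6 genes, XBP1, their pseudogenes and overlapping genes, the genes of the 2 short lists, the lowest and highest gene of the 2 longer lists, and the 2 genes closest in pattern to each of the 6. Some items of the lists and of the sequences are not reported here.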

Additional observations from a re-analysis of the deposited data

Results flagged for a closer look

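SEC11A had 67.3 CPM in MKC8866 replicate 2, while the other 3 MKC8866 libraries lay between 54.9 and 55.5 CPM. The gap made up 0.948 of the range of the group, above the 95% critical value of Dixon's test for 4 values. Of 28 groups examined this way (the 6 genes and the SEC11C share in 4 groups each), it was the only one, and chance alone picks out about 1 group in 20. The same library was the highest MKC8866 library for SEC11C, SPCS1 and SPCS3, and Vehicle replicate 2 was the highest Vehicle library for SEC11A (70.8 CPM). The part of this library in the SEC11A result was not tested further than by leaving it out.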

How the results depend on the processing

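SEC11C, SPCS2, SPCS3 and HM13 kept their direction and their call in both experiments under all 16 alternatives run for each comparison: DESeq2, other scalings and filters, the replicate block, the fit of all 16 libraries, SPCS2 and SPCS2P4 summed (added after seeing the data), and leaving out each library. Summing altered only the counts of SPCS2, so that setting is no separate check of the other genes. After knockdown the replicate block changed no call of the 6 genes, and in the inhibitor experiment it added SEC11A and SPCS1. Leaving out 1 library gave 4 called genes each time after knockdown, where 3365 to 3622 of all genes were called lower. With MKC8866 it gave 4 to 6, the 6 being without MKC8866 replicate 2. That fit called more genes in general: 833 lower and 484 higher of 20841, beside 654 and 287 of 21045 with all libraries. For the difference between the treatments, 1 gene (SPCS1) was called with the replicate block over both experiments, beside 27.7% of all genes. With total counts 1 (SPCS1) was called, and leaving out 1 library gave 0 to 2. Those fits without 1 library called 2371 to 2655 of all genes negative and 1897 to 2139 positive.

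The SEC11A change after knockdown, which was not called, was 0.0024 with total counts and -0.062 to 0.016 on leaving out 1 library. The SPCS3 difference between the treatments, also not called, was -0.029 to 0.041 on leaving out 1 library. The SEC11C share differed by -5.91 and -2.31 percentage points between same-numbered pairs (replicate block, exact sign-flip test), where 4 pairs cannot give a p below 0.125, the value found in both experiments. Without 1 library the inhibitor difference was -2.65 to -2.02 percentage points. Counts shared by SPCS2 and its copy, and the exon bases that SPCS1 shares with NEK4 and GLT8D1, limit the levels of these genes at any depth.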
